A study of Mus musculus with 8 samples.

Results

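The C-type lectins Clec7a, Clec4a2, Clec4n and Clec5a and the adaptor Card9 were followed in peritoneal colon tumors after STING activation. They were found by their symbols and are 5 of the 750 immune-related genes of the panel, and they were selected with their housekeeping-scaled counts in treated and control tumors already known, so the contrast between the groups is given for them as a description without a test. The tumors arose from MC38 mouse colon cancer cells implanted into the peritoneal cavity of male wild-type C57BL/6 mice aged 7 to 8 weeks. From day 7 after implantation, the mice received PBS (PBS controls 1 to 4) or the STING agonist RR-CDA (STING agonists 1 to 4), a cyclic dinucleotide that switches on type-I interferon production, as 2 intraperitoneal injections of 15 µg given 3 days apart. Tumors were collected 10 days after the first injection, and RNA of the whole tumor was counted with NanoString probes. The tumors were pooled from 2 experiments, the labels do not say which tumor belongs to which, and they list the tissue as colon. The counts of the 750 genes summed to between 241506 and 414698 per tumor.

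PBS controls 2 and 4 differed by less than the sampling noise (chi-square per degree of freedom 0.404 over 358 genes of moderate count, against at least 5.89 for other pairs within a group). The rounded mean of their counts was therefore counted as 1 sample, which left 3 control samples and 4 treated tumors. The labels do not state in so many words that the tumors came from separate animals, so a p-value here measures the spread between these samples. All values below are counts divided by the geometric mean of 20 housekeeping genes and brought to a common scale. Probes differ in efficiency, so counts are compared between tumors and not between genes.

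Myeloid C-type lectins are surface receptors of macrophages, monocytes, neutrophils and dendritic cells that bind fungal and other glycans as well as ligands from damaged cells. Activating members signal through the kinase Syk, either by a motif in their own tail or by a partner chain such as FcRγ or DAP12, and Syk engages the complex of Card9, Bcl10 and Malt1, which turns on NF-kB. Inhibitory members recruit phosphatases that restrain the same cascade.

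By RefSeq on assembly GRCm38.p6, the 4 lectins lie on chromosome 6 and Card9 on chromosome 2. Clec4a2 and Clec4n are separated there by 1 protein-coding gene, Clec4b2, itself a C-type lectin, whereas 108 protein-coding genes lie between Clec4n and Clec7a. The upstream sequences are shown so that the members can be compared with one another. The RefSeq promoter table held 4 of the 5 genes, and Clec4n had no entry. The 250 bases before the gene start are printed 5′ to 3′ in the direction of transcription. They cover, on build GRCm38.p6, chr6:129472786-129473035 on the minus strand for Clec7a (the outer of 2 listed starts), chr6:123122440-123122689 on the plus strand for Clec4a2, chr6:40585806-40586055 on the minus strand for Clec5a and chr2:26360910-26361159 on the minus strand for Card9. Capitals mark matches, on either strand, to GAGGAA (the purine box bound by PU.1, a myeloid ETS factor), TTCNNNGAA (a GAS-type element) or AANNGAAA (an interferon regulatory factor type element). The motifs can overlap one another.
Clec7a: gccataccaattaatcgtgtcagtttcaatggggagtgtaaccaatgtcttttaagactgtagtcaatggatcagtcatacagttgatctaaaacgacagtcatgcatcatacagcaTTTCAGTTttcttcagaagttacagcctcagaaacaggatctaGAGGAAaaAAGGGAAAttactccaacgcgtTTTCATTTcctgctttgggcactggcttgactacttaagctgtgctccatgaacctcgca
Clec4a2: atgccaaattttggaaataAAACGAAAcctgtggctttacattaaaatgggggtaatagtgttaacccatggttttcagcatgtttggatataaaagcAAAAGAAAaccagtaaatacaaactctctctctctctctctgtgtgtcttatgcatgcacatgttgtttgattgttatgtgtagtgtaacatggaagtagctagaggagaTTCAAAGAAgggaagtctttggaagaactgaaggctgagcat
Clec5a: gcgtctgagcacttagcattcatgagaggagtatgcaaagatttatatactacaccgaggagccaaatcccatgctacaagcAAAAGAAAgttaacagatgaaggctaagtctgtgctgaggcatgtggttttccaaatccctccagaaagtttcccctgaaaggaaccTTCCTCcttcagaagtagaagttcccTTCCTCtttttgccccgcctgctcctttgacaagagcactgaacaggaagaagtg
Card9: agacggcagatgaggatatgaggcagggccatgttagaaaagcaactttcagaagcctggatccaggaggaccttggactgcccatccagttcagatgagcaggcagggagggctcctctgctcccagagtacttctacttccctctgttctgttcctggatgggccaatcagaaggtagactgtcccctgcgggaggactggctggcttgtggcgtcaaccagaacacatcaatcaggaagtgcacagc
GAGGAA was found 1 time upstream of Clec7a and 2 times upstream of Clec5a, and 23.3% of 32851 promoters of the same length held it. TTCNNNGAA was found 1 time upstream of Clec4a2, with 7.02% of promoters holding it. AANNGAAA was found 3 times upstream of Clec7a, 2 times upstream of Clec4a2 and 1 time upstream of Clec5a, with 21.3% of promoters holding it. A match describes letters and not a bound site.

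Clec7a encodes dectin-1, the receptor for fungal beta-glucan, which carries its own activating motif. Its scaled count was 22.6 in PBS control 1, 21.3 in PBS controls 2 and 4 and 49.0 in PBS control 3. After RR-CDA it was 117 in STING agonist 1, 114 in STING agonist 2, 49.8 in STING agonist 3 and 101 in STING agonist 4. The treated tumors were high except for STING agonist 3, which sat just above PBS control 3, so the groups were apart by a narrow gap. The means were 31.0 ± 15.7 (SD, n = 3) and 95.7 ± 31.4 (SD, n = 4), a 3.09-fold difference with a log2 fold change of 1.60 ± 0.42 (SE). The narrow gap was within counting error: 48 counts in STING agonist 3 gave an exact Poisson 95% interval of 36.7 to 66.1 on the scaled axis, and 67 counts in PBS control 3 gave 38.0 to 62.3. Clec7a was the 1 of 5 genes whose groups did not overlap in the higher direction, a pattern that 16.8% of all 750 genes showed. Under total count scaling and after background subtraction its groups overlapped as well, and they stayed apart in the other 20 of 22 alternatives.

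Clec4n encodes dectin-2, a receptor for fungal mannan that signals through FcRγ. Its scaled count was 84.6 in PBS control 1, 33.2 in PBS controls 2 and 4 and 95.2 in PBS control 3. In the treated tumors it was 57.0, 83.2, 76.8 and 70.8 in STING agonists 1 to 4. All treated tumors lay between the low merged control and the other controls. The means were 71.0 ± 33.2 (SD, n = 3) and 72.0 ± 11.2 (SD, n = 4), and the log2 fold change was 0.01 ± 0.36 (SE), a difference far below the spread. Its direction turned with the scaling, to −0.18 with TMM, and it was −0.32 without PBS controls 2 and 4, where all treated tumors were below both remaining controls.

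Clec5a encodes MDL-1, a receptor that signals through DAP12 in monocytes and neutrophils. Its scaled count was 57.3 in PBS control 1, 16.6 in PBS controls 2 and 4 and 41.7 in PBS control 3. In the treated tumors it was 49.8, 60.9, 54.0 and 63.6 in STING agonists 1 to 4. The treated tumors lay close together and 2 of 4 exceeded every control, so the groups overlapped. The means were 38.6 ± 20.6 (SD, n = 3) and 57.1 ± 6.31 (SD, n = 4), with a log2 fold change of 0.56 ± 0.39 (SE). That value was 1.23 with background subtraction and limma together (0.71 with limma alone) and 0.21 without PBS controls 2 and 4.

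Clec4a2 encodes an inhibitory receptor of the DCIR family, whose tail recruits phosphatases. Its scaled count was 154 in PBS control 1, 36.7 in PBS controls 2 and 4 and 126 in PBS control 3. In the treated tumors it was 163, 96.9, 159 and 169 in STING agonists 1 to 4. STING agonist 2 was lower than PBS controls 1 and 3, whereas 3 of 4 treated tumors exceeded every control. The means were 106 ± 61.3 (SD, n = 3) and 147 ± 33.7 (SD, n = 4), and the log2 fold change of 0.47 ± 0.43 (SE) was 0.07 without PBS controls 2 and 4.

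Card9, the adaptor that links Syk to Bcl10 and Malt1, was at the edge of detection. Its raw count was 8, 1, 20 and 1 in PBS controls 1 to 4 and 6, 5, 7 and 6 in STING agonists 1 to 4. It exceeded the background of its own tumor, the mean plus 2 SD of the negative probes, in 2 of 8 tumors. Scaled counts were 7.52, 1.19 and 14.6 in the control samples and 7.12, 6.21, 7.27 and 5.38 in the treated tumors, which fell inside the control range. The means were 7.78 ± 6.73 (SD, n = 3) and 6.49 ± 0.879 (SD, n = 4). The log2 fold change of −0.34 ± 0.59 (SE) turned to 0.49 without PBS control 3. It was −0.78 without PBS controls 2 and 4, where all treated tumors were below both remaining controls, and −0.83 with background subtraction and limma together, so its direction was not settled at these counts. The lectins exceeded background in 8 of 8 tumors, in some controls by little. Clec5a had 9 counts in PBS control 4 against a background of 8.27, and Clec7a had 17 in PBS control 2 against 11.3. The sizes of their fold changes are therefore uncertain, and that of Clec7a was 2.21 with background subtraction and limma together (1.63 with limma alone).

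**Figure D1:**
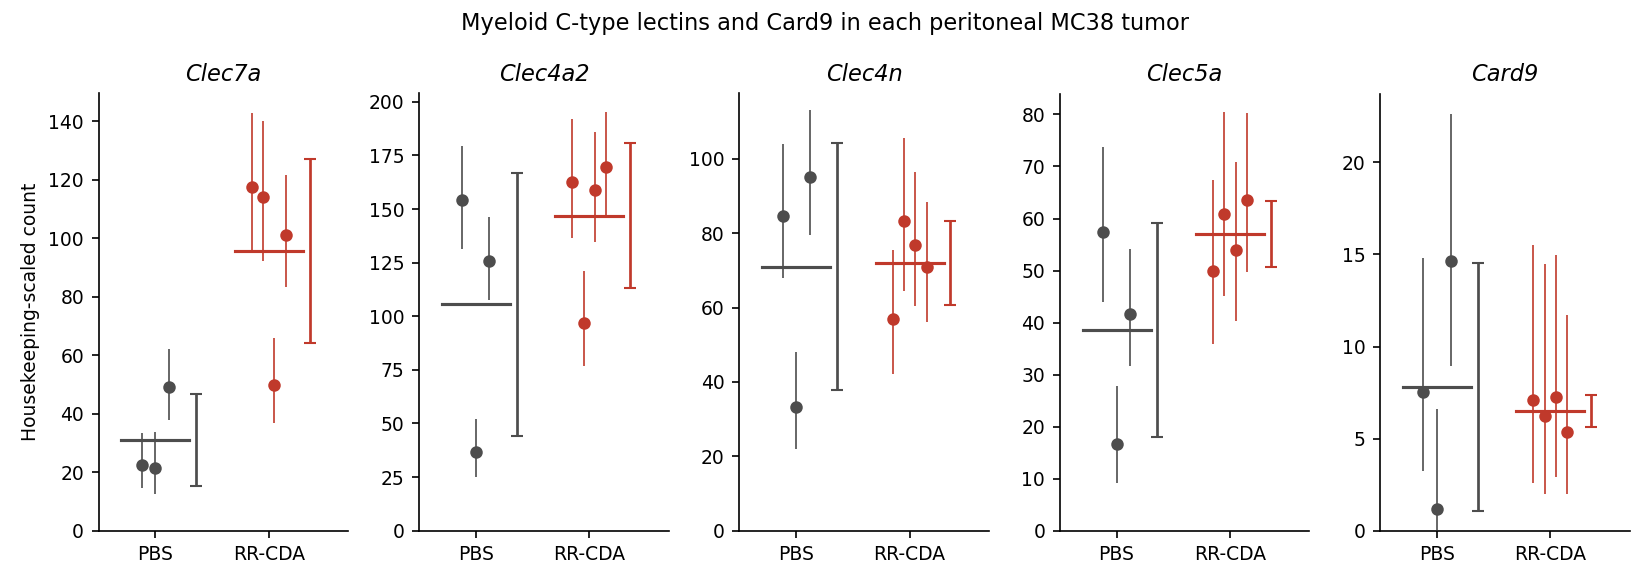
Housekeeping-scaled counts (vertical axes, each from 0) of the 5 genes in each control sample (grey) and treated tumor (red). Thin bars are exact Poisson 95% intervals, which cover counting error only, horizontal lines are group means and capped bars are 1 SD. For PBS controls 2 and 4 the interval treats the rounded mean as 1 count, so it is wider than an interval from both counts together. Clec7a is higher after RR-CDA with STING agonist 3 level with PBS control 3, and the merged controls 2 and 4 are the lowest sample for every gene.

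The median log2 fold change of the 750 genes was 0.22 with housekeeping scaling and −0.02 with TMM, so relative to the panel Clec4n and Card9 lay below the middle and the other 3 genes above it. Clec7a stood at percentile 96.7 of the panel's fold changes, Clec5a at 73.2, Clec4a2 at 68.1, Clec4n at 29.9 and Card9 at 10.4. The controls spread widely for the 5 genes, with coefficients of variation from 46.7% for Clec4n to 86.5% for Card9, against a median of 23.1% over 519 genes with a mean of at least 20 counts, a set that holds the 4 lectins but not Card9, whose mean count was 6.75. In the treated tumors the coefficients ran from 11.1% for Clec5a to 32.8% for Clec7a, with a panel median of 19.8%.

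**Figure D2:**
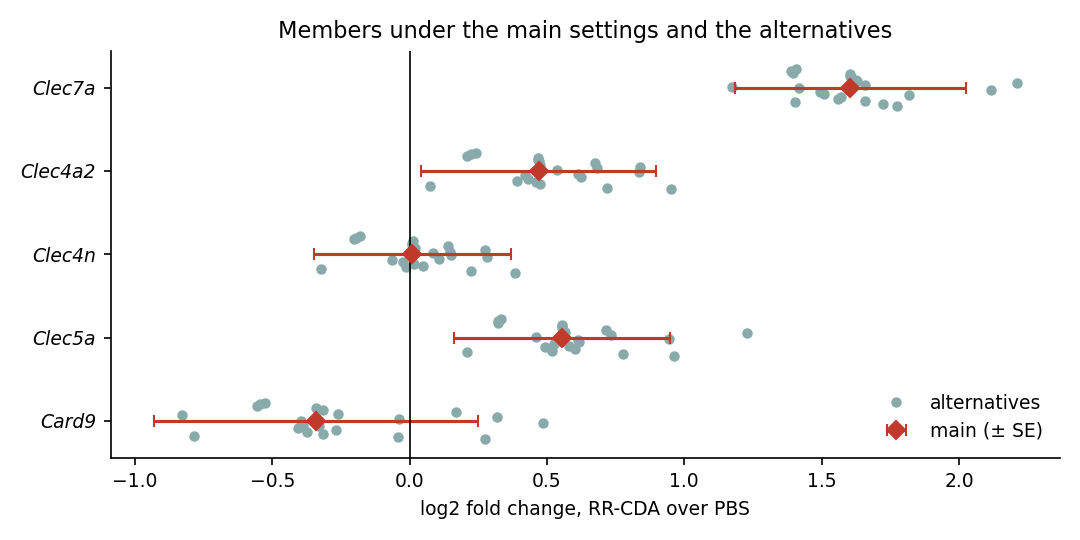
The log2 fold change of each gene (horizontal axis) with the main settings (red diamond, bar 1 SE) and with each alternative (blue-grey points). Clec7a ranges from 1.18 to 2.21, Clec4a2 and Clec5a stay above 0, and Clec4n and Card9 lie on both sides of 0.

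The low values in PBS controls 2 and 4 were shared with some leukocyte markers and not with others. Ptprc, which encodes the pan-leukocyte protein CD45, was 110, 42.7 and 113 in the control samples and 261, 169, 142 and 272 in STING agonists 1 to 4. The macrophage gene Emr1 (F4/80) was 157, 59.3 and 240 in the controls and 502, 314, 261 and 427 after RR-CDA. Ptprc and Emr1 thus had their lowest value in PBS controls 2 and 4 and every treated tumor above every control. The macrophage gene Csf1r had the same pattern, with 211, 37.9 and 208 in the controls and 292, 318, 232 and 353 after RR-CDA. Cd68, another macrophage gene, was 557, 465 and 693 in the controls and 894, 481, 668 and 784 after RR-CDA, so its groups overlapped. In a bulk tumor, fewer cells of a type and less RNA per cell cannot be told apart. The 14 macrophage and monocyte markers on the panel summed to 5473, 2596 and 7392 in the controls and to 8595, 6661, 6839 and 8375 in the treated tumors, with the largest share of counts from the Lyz2 probe. Cd14 was higher in PBS controls 2 and 4 (109) than in PBS controls 1 and 3 (64.9 and 97.4). Marco was 108, 171 and 474 in the control samples, so PBS controls 2 and 4 were not the lowest for it either. Groups did not overlap for 4 of 14 markers in the higher and 0 in the lower direction, beside 16.8% and 1.47% of all 750 genes. None of the 14 passed an adjusted p of 0.05 in edgeR, while an unadjusted p under 0.05 was reached by 3 of 14 in the higher and by 2 of 14, Cd163 and Marco, in the lower direction, beside 17.6% and 1.33% of all 750 genes. The 7 neutrophil markers, with most counts from the S100a8 probe, summed to 337, 622 and 393 in the controls and to 689, 323, 582 and 431 in the treated tumors, and 0 of 7 reached p under 0.05 in edgeR before adjustment. The neutrophil and dendritic cell sums were highest among the controls in PBS controls 2 and 4, the former through S100a8 and Camp, while Csf3r, Cxcr2, Ltf and, of the dendritic cell list, Xcr1 were lowest there. The 4 dendritic cell markers, with the largest share of counts from the Ccr7 probe, summed to 34.8, 56.9 and 48.3 in the controls and to 89.0, 43.5, 64.4 and 63.6 in the treated tumors, and 1 of 4 was higher with p under 0.05 before adjustment in edgeR. That gene, Itgax (CD11c), which dendritic cells share with some macrophages and monocytes, was 2.82, 3.56 and 5.86 in the controls, near background, and 23.7, 14.9, 8.31 and 22.4 in the treated tumors, without overlap (log2 2.02 ± 0.49, edgeR adjusted p = 0.175). Itgax was near background in STING agonist 3 too, so the size of its fold change is uncertain. The part of these cell markers in the values of the lectins was not tested.

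Expressed as a percentage of leukocyte and macrophage genes in the same tumor, a ratio chosen after the data were seen, Clec4n and Clec7a gave the following values. Clec4n relative to Ptprc was 76.9, 77.8 and 84.4% in the controls and 21.8, 49.3, 54.0 and 26.1% in STING agonists 1 to 4. Every treated tumor was below every control, as for 42.5% of 749 genes. Relative to Emr1, Clec4n was 53.9, 56.0 and 39.6% in the controls and 11.3, 26.5, 29.5 and 16.6% in the treated tumors, again without overlap, as for 44.3% of genes. Relative to Csf1r, the receptor for the macrophage growth factor, it was 40.0, 87.5 and 45.8% against 19.5, 26.2, 33.2 and 20.1%, also without overlap, as for 21.4% of genes. Relative to Cd68 the groups overlapped for Clec4n, while 3.47% of genes were lower without overlap. Clec7a relative to Ptprc was 20.5, 50.0 and 43.5% in the controls and 45.0, 67.6, 35.0 and 37.3% in the treated tumors, with overlapping groups, and its ratios to Csf1r and Emr1 overlapped too. Relative to Cd68, Clec7a was 4.05, 4.59 and 7.08% in the controls and 13.1, 23.8, 7.47 and 12.9% in the treated tumors, higher without overlap, as for 8.41% of genes. The ratios of Clec4a2, Clec5a and Card9 overlapped between groups for all 4 denominators.

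**Figure D3:**
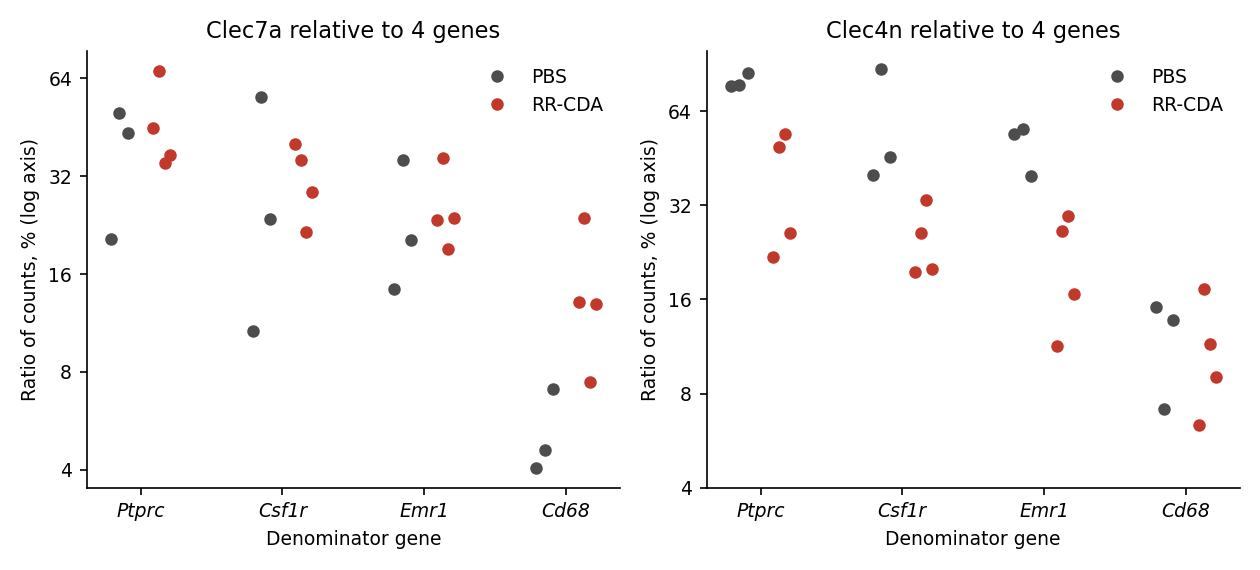
Counts of Clec7a (left) and Clec4n (right) as a percentage of the count of Ptprc, Csf1r, Emr1 or Cd68 in the same tumor (log axis), with controls in grey and treated tumors in red. Clec4n lies lower in every treated tumor relative to Ptprc, Csf1r and Emr1 but not Cd68, and Clec7a overlaps between groups for all but Cd68.

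With the group means removed, the genes were compared over the 7 samples as a description. Clec4n and Clec5a had a Pearson r of 0.91 (Spearman rho 0.86), Clec4n and Card9 0.90 (rho 0.82) and Clec4a2 and Clec5a 0.87 (rho 0.86). Clec4a2 and Card9 had an r of 0.83, Clec5a and Card9 0.79, and Clec4a2 and Clec4n 0.77. Clec7a was less like the others, with r from 0.18 with Clec4a2 to 0.47 with Card9. These likenesses rested on PBS controls 2 and 4: without them r was 0.19 for Clec4n and Clec5a, 0.14 for Clec4n and Card9, 0.02 for Clec4a2 and Clec5a, −0.23 for Clec4a2 and Card9, −0.94 for Clec5a and Card9 and −0.67 for Clec4a2 and Clec4n.

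**Figure D4:**
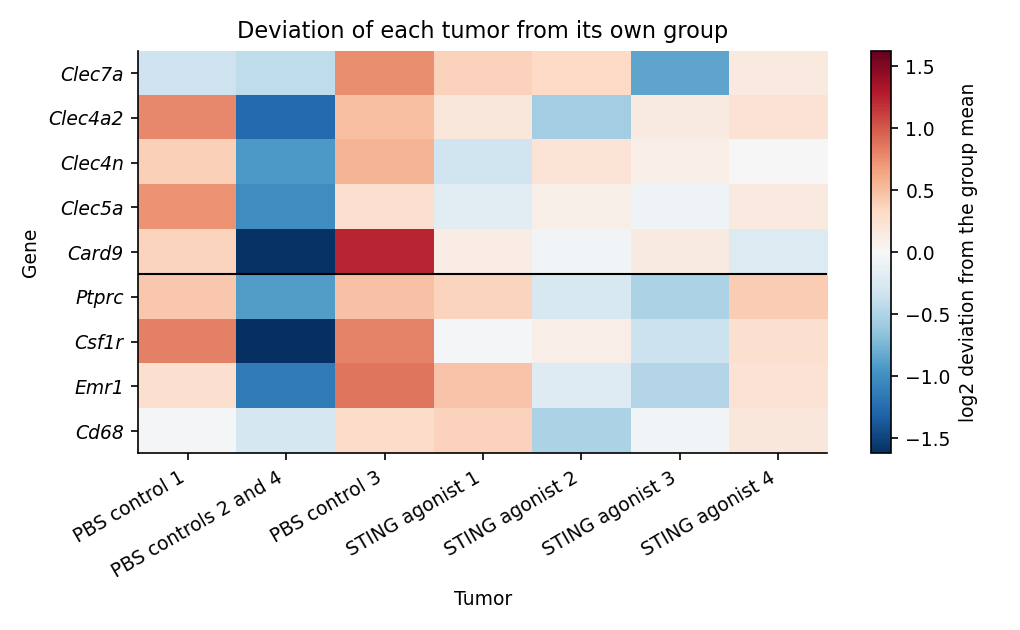
Deviation of each sample (columns) from the mean of its own group, in log2 units (color), for the 5 genes and, below the line, 4 leukocyte and macrophage genes. PBS controls 2 and 4 are low in most rows, and Clec7a is low in STING agonist 3.

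Among 519 genes with a mean of at least 20 counts, those most like Clec7a within groups over the 7 samples were Rela (r 0.98), Ccr2 (r 0.96) and Lif (r 0.96), and these stayed at 0.98, 0.96 and 0.95 without PBS controls 2 and 4. Clec4a2 was most like Tlr8 (r 0.99), Inpp5d (r 0.99) and Lyn (r 0.98), with 0.98, 0.94 and 0.89 without those controls. Clec4n was most like Tlr2 (r 0.99), Cd33 (r 0.98) and Tirap (r 0.96), with 0.91, 0.92 and 0.69 without them. The genes closest to Clec5a were Nrp1 (r 0.97), Ly86 (r 0.97) and C1qa (r 0.96), which dropped to 0.71, 0.62 and 0.54 without them. For Card9 they were Mertk (r 0.98), Tmem173 (r 0.97) and Siglec1 (r 0.97), at 0.78, 0.72 and 0.74 without them. The Card9 likenesses rest on counts near background, and without the 2 samples farthest from the median of Card9 they were 0.89, 0.80 and 0.19. For each member the 3 genes were picked as the highest of 519 over only 7 samples, and such picking alone raises r. The values without PBS controls 2 and 4 use the same picked genes and are no independent check.

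Downstream of the receptors, 53 of 63 listed signalling and output genes were on the panel. In edgeR 0 of 53 passed an adjusted p of 0.05, as did 0% of the 750 genes, whereas DESeq2 called 52 of 750. Before adjustment, 6 of 53 reached p under 0.05 with higher and 0 with lower values after RR-CDA, beside 17.6% and 1.33% of all genes, and their median log2 fold change was 0.19. Groups did not overlap for 7 of 53 in the higher and 0 in the lower direction, beside 16.8% and 1.47% of all genes.

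The FcRγ chain gene Fcer1g was 389, 146 and 302 in the controls and 605, 314, 397 and 587 in STING agonists 1 to 4. It was lowest in PBS controls 2 and 4, its groups overlapped, and the log2 fold change was 0.77 ± 0.35 (SE, adjusted p = 0.278, edgeR). Syk, the kinase that couples the receptors to Card9, was 49.8, 22.5 and 72.5 in the controls and 84.3, 54.6, 47.8 and 99.5 after RR-CDA, with overlapping groups (log2 0.56 ± 0.43, edgeR adjusted p = 0.518). The Syk value was 0.97 without PBS control 3, 0.35 without STING agonist 4 and 0.23 without PBS controls 2 and 4, where that of Fcer1g was 0.46. The Card9 partner Bcl10 was above every control in 4 of 4 treated tumors by a small difference (log2 0.19 ± 0.13, edgeR adjusted p = 0.470), and the 7 genes for Card9 partners and the IKK complex ranged from −0.03 to 0.19. The 6 genes for NF-kB subunits and their inhibitor ranged from 0.05 to 0.33 with a median of 0.22. Nfkb1 and Rela, the lowest of them, had log2 fold changes of 0.05 ± 0.13 and 0.09 ± 0.18, and with Bcl10 they turned negative under TMM.

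Of these 6 genes, 4 were outputs of the cascade. Il1b, the pyrogenic cytokine, was 13.2, 37.9 and 32.2 in the controls and 190, 60.9, 46.7 and 90.5 in STING agonists 1 to 4. All 4 treated tumors exceeded every control, STING agonist 1 by the most, and the log2 fold change was 1.80 ± 0.56 (edgeR adjusted p = 0.181, DESeq2 0.0249, lowest to highest over alternatives 0.0249 to 0.428). Pycard, the inflammasome adaptor, was 8.46, 3.56 and 7.32 in the controls and 17.8, 22.4, 9.34 and 15.2 after RR-CDA. Its groups did not overlap, but the counts were near background (log2 1.27 ± 0.44, edgeR adjusted p = 0.202). The size of that difference is uncertain: it was 0.44 with a pseudocount of 20 and 2.80 with background subtraction, both in limma. Ptgs2, the prostaglandin synthase COX-2, was 125, 223 and 195 in the controls and 824, 215, 223 and 453 in the treated tumors. Ptgs2 was high in STING agonists 1 and 4 and within or level with the controls in STING agonists 2 and 3 (log2 1.24 ± 0.48, edgeR adjusted p = 0.229, and log2 0.72 without STING agonist 1). The macrophage chemokine genes Ccl3 (log2 0.90 ± 0.32, edgeR adjusted p = 0.206) and Ccl4 (log2 0.94 ± 0.40, edgeR adjusted p = 0.245) exceeded every control in 4 of 4 and 3 of 4 treated tumors. Nlrp3 (log2 0.93 ± 0.50), Tnf (0.72 ± 0.46), Il6 (0.62 ± 0.44), Il10 (0.43 ± 0.45), Il23a (0.23 ± 0.39), Cxcl2 (0.19 ± 0.52) and Il12b (−0.23 ± 0.50) did not pass an unadjusted p under 0.05 in edgeR. Single tumors moved several of these values: without PBS control 3, Nlrp3 was 1.56, Il6 1.16, Il10 0.72 and Il23a 0.72, without PBS control 1, Il10 was 0.12 and Il23a 0.043, and without STING agonist 1, Tnf was 0.41. With background subtraction and limma together, Nlrp3 was 2.30, Tnf 1.77, Il6 1.90, Il10 1.20 and Il23a 0.93. With limma and a pseudocount of 20 they were 0.52, 0.29, 0.26, 0.13 and 0.16. Without PBS controls 2 and 4 together they were 0.64, 0.69, 0.33, 0.52 and 0.043. Cxcl2 and Il12b turned direction between alternatives.

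Of 50 other listed C-type lectin genes, 27 were on the panel, and in edgeR 0 of 27 passed an adjusted p of 0.05 while 4 with higher and 0 with lower values reached p under 0.05 before adjustment, beside 17.6% and 1.33% of all 750 genes. Their median log2 fold change was 0.13. All 4 came from the list named lymphoid, which makes up 20 of the 27. The list name does not settle which cells of these tumors expressed them, and myeloid expression was not tested. Cd69, an early activation receptor, was 20.7, 22.5 and 21.2 in the controls and 71.2, 62.1, 32.2 and 52.0 in STING agonists 1 to 4, with every treated tumor above the controls (log2 1.33 ± 0.34, edgeR adjusted p = 0.175, DESeq2 0.0146, lowest to highest over alternatives 0.0146 to 0.386). Klra2 (log2 1.33 ± 0.47), Klrc1 (1.08 ± 0.37) and Klrk1 (1.17 ± 0.42) had edgeR adjusted p-values of 0.205, 0.203 and 0.215, and the Klra family consists of near-identical copies, so probe specificity within it is uncertain. The mannose receptor gene Mrc1, among the 5 myeloid or soluble lectins, was 363, 119 and 438 in the controls and 170, 240, 406 and 209 in the treated tumors. Mrc1 overlapped between groups (log2 −0.26 ± 0.44, edgeR adjusted p = 0.828) and was positive without PBS control 3.

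**Figure D5:**
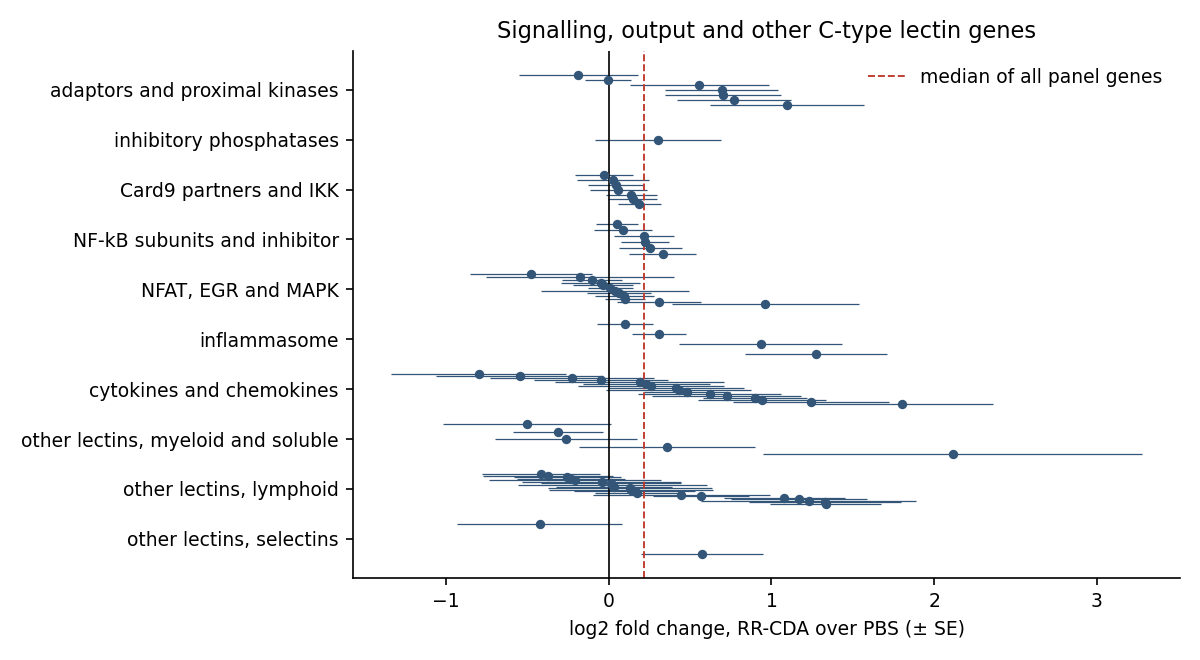
The log2 fold change (horizontal axis, bar 1 SE) of each signalling, output and other C-type lectin gene, grouped by role (rows). The dashed line is the median of the 750 genes, 0.22. Genes for Card9 partners and the IKK complex lie between −0.03 and 0.19, below that line, and Il1b lies highest among the cytokines and chemokines.

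Other cell types were represented by their markers. In edgeR, 3 of 7 T cell markers and 1 of 4 endothelial markers were higher at an unadjusted p under 0.05, beside 17.6% of all 750 genes, whereas 0 of 5 B cell, 0 of 3 NK cell and 0 of 2 epithelial markers passed it. The 7 hepatocyte markers, with the largest share of counts over all samples from the Ambp probe, summed to 33.8, 26.1 and 58.6 in the controls and to 42.7, 22.4, 30.1 and 1323 in STING agonists 1 to 4. They were high in STING agonist 4, where the soluble lectin gene Mbl2 was 77.1 against at most 7.32 in any other sample. Of these 7 markers, 1 was higher at an unadjusted p under 0.05 in edgeR. That gene, Ambp, was 775 in STING agonist 4 against at most 11.9 in any other sample. Clec7a was 101 in that tumor, between STING agonists 3 and 2, and without STING agonist 4 the log2 fold change of Clec7a was 1.57. Clec4a2 (169) and Clec5a (63.6) had their highest value of all samples there, whereas Clec4n and Card9 did not. Without that tumor the log2 fold changes of Clec4a2 and Clec5a were 0.39 and 0.49.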

How the data were processed

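RNA of 8 peritoneal MC38 tumors was measured by the authors with NanoString nCounter probes (the mouse PanCancer Immune Profiling set), and the deposited values are raw counts of 784 probes (750 genes, 20 housekeeping, 8 negative and 6 positive controls). Upstream settings and software versions are not given in the sources used here. Groups and replicate numbers came from the labels, and dose, age and schedule from the study's methods and results text. The members and lists were chosen with earlier results of these data known. Counts of PBS controls 2 and 4 were averaged and rounded, and the geometric mean of the 20 housekeeping genes set the scale of every sample. Treated and control samples were tested in edgeR 4.0.16 under R 4.3.3 (glmQLFTest, quasi-likelihood) over all 750 genes with no filter, adjusted by Benjamini-Hochberg, after a test on simulated data. The SE is the absolute log2 fold change over the square root of F. Alternatives used limma 3.58.1 and DESeq2 1.42.0. Named genes were the 5 members, listed pathway and lectin genes with an unadjusted p under 0.05, a set named whatever its values, and the 3 genes most like each member; marker genes were named from their lists. Of the listed pathway genes with such a p, 1 is not reported here by name. Likeness used log2(scaled count + 1). Background was the mean plus 2 SD of the negative probes. Promoters and gene order came from RefSeq (GRCm38.p6).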

Additional observations from a re-analysis of the deposited data

Results flagged for a closer look

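Among the 28 genes examined, 2 had a treated tumor far from the other 3: the gap to the nearest tumor was 0.854 of the range for Clec4a2, which was low in STING agonist 2, and 0.880 for Bcl10, which was high in STING agonist 1. Chance flags about 1 in 20 groups, or 1.4 of 28. The cause was not tested.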

How the results depend on the processing

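Clec7a, Clec4a2 and Clec5a kept their direction in 22 of 22 alternatives each, ranging from 1.18 to 2.21, 0.07 to 0.95 and 0.21 to 1.23 (the last with background subtraction and limma). Clec4n was −0.18 with TMM, −0.20 with DESeq2 size factors, −0.20 with total count scaling and −0.32 with controls 2 and 4 left out together. In the other direction, Clec4n was 0.22 with all 8 tumors separate and 0.38 with the replicate block added. With background subtraction and limma together it was 0.28 (0.14 with limma alone). Card9 was 0.17 with limma, 0.32 with limma and a pseudocount of 0.1 and, with all 8 tumors separate, −0.043 without and 0.27 with the replicate block. With 1 tumor left out, ranges were 1.42 to 2.12 for Clec7a, 0.39 to 0.84 for Clec4a2, −0.065 to 0.28 for Clec4n, 0.49 to 0.95 for Clec5a and −0.40 to 0.49 for Card9. Clec4n turned negative without PBS control 4, STING agonist 2 or STING agonist 3, and Card9 turned positive without PBS control 3. The causes were not tested.

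At an unadjusted p under 0.05, 132 genes were higher and 10 lower with the main settings, 84 and 40 with TMM, 78 and 44 with DESeq2 size factors and 68 and 31 with total count scaling. The methods' t-test gave 86 higher, background subtraction together with limma 3 lower (limma alone 12), and leaving out controls 2 and 4 together 17 lower. With 1 tumor left out, 79 to 154 were higher and 6 to 18 lower. The count at an adjusted p under 0.05 was 0 with edgeR, 52 with DESeq2 and 0 to 7 with 1 tumor left out. Signalling and output genes at an unadjusted p under 0.05 numbered 6 with the main settings, 3 with TMM, 2 with DESeq2 size factors, 11 with all 8 tumors separate and 2 to 8 with 1 tumor left out. Other lectins numbered 4, 1 with the methods' t-test, 2 without controls 2 and 4 together and 2 to 5 with 1 tumor left out. The mean r between members was 0.63 with the main settings, 0.51 to 0.74 with 1 tumor left out, and −0.20 with controls 2 and 4 left out together, an alternative chosen after seeing the data.

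Bcl10 was −0.086 with TMM, −0.093 with DESeq2 size factors and −0.013 with total count scaling, Nfkb1 −0.21, −0.22 and −0.15, and Rela −0.15, −0.16 and −0.11. Cxcl2 was −0.16 with TMM, −0.16 with DESeq2 size factors, −0.092 with all 8 tumors separate and −0.13 to 0.41 with 1 tumor left out. Il12b was 0.080 with limma, 0.14 with limma and a pseudocount of 0.1, 0.086 with all 8 tumors separate and the replicate block and −0.41 to 0.62 with 1 tumor left out, positive without PBS control 3. Mrc1 was 0.15 with all 8 tumors separate and the replicate block and −0.58 to 0.086 with 1 tumor left out, positive without PBS control 3. Ratios, also added after seeing the data: Clec4n to Cd68 was −0.14 on the log2 scale, 0.056 with all 8 tumors separate and −0.39 to 0.092 with 1 tumor left out, and Clec7a to Emr1 was 0.18, −0.15 with a pseudocount of 20 and −0.12 to 0.31 with 1 tumor left out. Left-out ranges were −0.063 to 0.48 for Clec7a to Ptprc and −0.24 to 0.52 for Clec7a to Csf1r, negative without PBS control 1. With controls 2 and 4 left out together, Clec7a to Ptprc was 0.58, Clec7a to Csf1r 0.95 (main 0.35), Clec7a to Emr1 0.54 and Clec4n to Cd68 −0.48, and Cxcl2 was 0.96, Il12b −0.56 and Mrc1 −0.65 (main 0.19, −0.23 and −0.26).

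Same-numbered tumors did not deviate together (correlations −0.06, −0.09, −0.28 and −0.12), so the numbers give no pairing; with all 8 tumors separate, 186 genes were higher and 15 lower without the replicate block and 159 and 13 with it. A count near background, as for Card9, has a large counting error.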
